A study of Homo sapiens with 4 samples.

Results

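The 40 genes described here are neighbours on the long arm of human chromosome 9, between 104.7 and 120.8 Mb of GRCh38, a stretch of 16.1 Mb labelled 9q31-q33. They were found by name in a deposited table of 60544 genes, and each name matched 1 row. GENCODE 29 placed all 40 on chromosome 9, from NIPSNAP3A (ENSG00000136783, starting at 104747688) to PSMD5 (ENSG00000095261, ending at 120842984). The annotation carries no band names, so the band label was not checked. The list was chosen by position and on the sh812 against shNC fold changes of these same libraries, and no cutoff on those values is stated. Their changes in that comparison are therefore a description, and a call given for a member is no test of the group.

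Poly(A) RNA was sequenced from PC3, an established prostate cancer cell line of human origin, in cells that carried a control hairpin (shNC, 2 libraries) or a hairpin labelled sh812 (2 libraries), without any other treatment named. The series compares METTL3 knockdown with control, and sh812, the other label, was taken to be the knockdown. METTL3, the catalytic subunit of the N6-methyladenosine (m6A) writer, stood at 44.3 and 43.6 CPM (counts scaled to a common library size) in shNC and at 7.66 and 8.75 CPM in sh812, 18.7% of the control level. Nothing states that the replicates came from separate cultures, so the p-values measure the spread between these libraries, which may be technical. The labels name 1 hairpin per arm and do not say whether the cells were a pool or a clone.

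Library totals ran from 31450648 to 37041330 counts. Of the epithelial markers KRT8, KRT18, KRT19, EPCAM and CDH1, none was at 3 counts or fewer in every library, and their summed level was 815 and 920.2 CPM in shNC and 956 and 1016 CPM in sh812. KLK3 and KLK2, androgen-driven prostate genes, and CD3E, a T cell gene, had 0 counts in every library, and VWF had 3 or fewer. The 5 androgen axis genes summed to 28.8 and 30.2 CPM in shNC and to 11.4 and 13.9 CPM in sh812. The leukocyte list summed to between 0.398 and 0.869 CPM. The fibroblast list, most of it COL1A1, ran from 41.3 to 44.0 CPM in shNC and from 31.1 to 36.1 CPM in sh812, and the endothelial list, nearly all PECAM1, from 23.7 to 23.8 CPM and from 32.9 to 38.6 CPM. The part of these shifts in the results was not tested, and in bulk RNA fewer cells of a type and less RNA per cell cannot be told apart.

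Genes of a chromosome segment need have no function in common: they share DNA copies, chromatin and replication timing, and some share a promoter region. The members hold genes of basic cell biology, among them thioredoxin, a spliceosome protein, a subunit of the anaphase-promoting complex and a proteasome assembly chaperone. They also hold tissue-restricted genes such as the matrix protein gene SVEP1 and the metalloprotease gene PAPPA. METTL3 methylates adenosines in messenger RNA, a mark known for roles in splicing, decay and translation.

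The promoter windows of 4 members are shown because they carry the pair of called genes that start next to each other (CDC26 and PRPF4), the most abundant member per length (TXN) and the member that was lower (PSMD5). The sequences are from RefSeq (GRCh38.p14), 5′ to 3′ on the gene's own strand, from 250 bases before to 50 after the start. Capitals mark matches, on either strand, to GGGCGG (GC box), TATAAA (the TATA box), CGGAAG (ETS core), TGACNNNGC (antioxidant response element core) or CCAAT.
CDC26, chr9:113275523-113275822, minus strand: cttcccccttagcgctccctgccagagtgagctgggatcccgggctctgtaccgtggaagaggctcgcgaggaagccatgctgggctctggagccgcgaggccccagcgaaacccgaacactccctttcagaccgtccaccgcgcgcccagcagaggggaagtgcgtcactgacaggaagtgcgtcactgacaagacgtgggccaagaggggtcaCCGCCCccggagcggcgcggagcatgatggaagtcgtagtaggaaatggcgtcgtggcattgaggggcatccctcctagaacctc
PRPF4, chr9:113275408-113275707, plus strand: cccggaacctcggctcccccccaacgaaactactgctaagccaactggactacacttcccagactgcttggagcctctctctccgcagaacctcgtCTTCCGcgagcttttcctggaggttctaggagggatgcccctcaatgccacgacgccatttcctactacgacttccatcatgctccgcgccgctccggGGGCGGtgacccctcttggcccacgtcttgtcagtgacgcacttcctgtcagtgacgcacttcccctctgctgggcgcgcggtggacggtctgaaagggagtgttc
TXN, chr9:110256458-110256757, minus strand: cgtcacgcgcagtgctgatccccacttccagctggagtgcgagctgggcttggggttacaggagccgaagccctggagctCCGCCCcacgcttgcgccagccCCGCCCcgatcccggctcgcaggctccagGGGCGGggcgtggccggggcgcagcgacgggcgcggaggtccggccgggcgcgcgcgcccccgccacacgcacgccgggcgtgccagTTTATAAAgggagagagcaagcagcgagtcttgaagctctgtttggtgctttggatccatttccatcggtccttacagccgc
PSMD5, chr9:120842873-120843172, minus strand: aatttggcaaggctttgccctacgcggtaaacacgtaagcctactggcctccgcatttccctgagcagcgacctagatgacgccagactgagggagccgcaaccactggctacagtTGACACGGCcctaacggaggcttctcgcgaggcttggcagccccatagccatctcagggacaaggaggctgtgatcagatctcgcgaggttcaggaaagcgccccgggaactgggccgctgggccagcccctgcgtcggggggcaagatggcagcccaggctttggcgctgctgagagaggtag

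The CDC26 and PRPF4 windows are the same DNA read from opposite strands over 185 bases, and both hold the same GC box. TXN holds 3 GC boxes and a TATA box, matched on both strands in overlapping letters that begin 32 and 30 bases before the start. PSMD5 holds neither, and has a match to TGACNNNGC. RefSeq windows were found for 36 of the 40 members (60 windows, since some genes have several starts). GGGCGG was present in at least 1 window of 31 of these 36 members, and in 43 of the 60 windows, beside 45.0% of all 35116 windows of this length. TATAAA was in 5 of the 60 (11.5% of all windows), CCAAT in 16 (34.6%), TGACNNNGC in 12 (13.3%) and CGGAAG in 11 (19.5%). The shares over all windows were not limited to genes detected in these libraries, so they are not a like comparison for the members. No difference in these shares was tested. A match is a string of letters and not a bound site.

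Of the 40 members, 37 passed the filter on low counts. RNF183, a ubiquitin ligase gene, had 0 counts in all 4 libraries. ZFP37, a zinc finger gene, had 4 and 2 counts in shNC and 0 and 0 in sh812, and BSPRY, a B-box protein gene, had 10 and 16, then 4 and 10. Among the 37, 14 were called higher in sh812 and 1 lower, where a gene counts as called if its Benjamini-Hochberg adjusted p is under 0.05 across the 16802 genes tested (edgeR, quasi-likelihood). Over all of these genes 5.43% were called higher and 5.42% lower, 10.8% in either direction. Scaling to library size alone gave 561 genes called higher and 1328 lower over the table, in place of 912 and 910, and 10 members called higher, without RAD23B, CTNNAL1, INIP and ATP6V1G1. The median log2 fold change of the 37 was 0.19, against -0.0056 over all genes tested, and 29 of the 37 had a positive value. PAPPA passed the filter only through its sh812 counts. Without it 13 of 36 members were called higher and the median was 0.17. When an sh812 library was left out the number called higher fell to 4, whichever of the 2 was removed, against 13 or 15 when an shNC library was left out. EPB41L4B, TXN and POLE3 were called in every one of these fits, HSDL2 also without sh812 replicate 1 and PTBP3 also without sh812 replicate 2. The other 9 lost their call whichever sh812 library was left out, INIP also without shNC replicate 2 and PAPPA also without shNC replicate 1. PSMD5 lost its call without sh812 replicate 2.

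**Figure D1:**
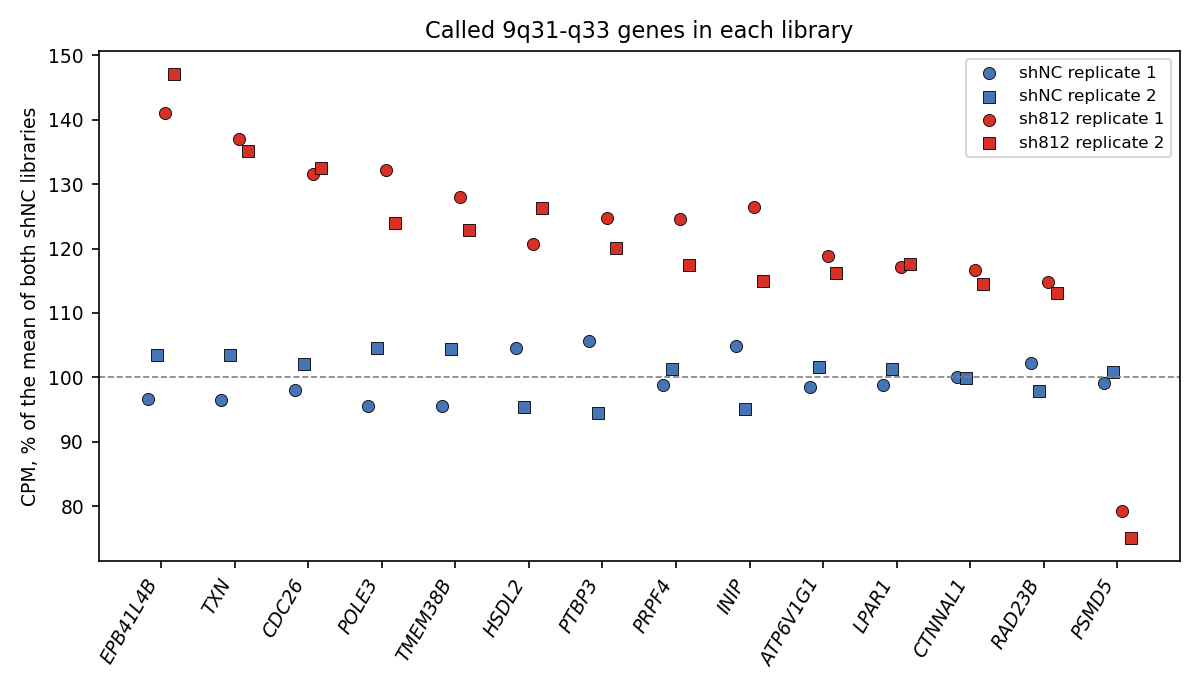
CPM of the called members in each library (y axis) as a percentage of the mean of both shNC libraries, by gene (x axis); blue points are shNC, red points sh812, circles replicate 1 and squares replicate 2. PAPPA is left out because its control level is near 0. The 13 raised genes lie between 113% and 147% in sh812 and between 94.4% and 106% in shNC, and PSMD5 lies at 79.2% and 75.1% in sh812.

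Members are grouped below by roles assigned here, and their counts describe genes chosen on this contrast. Over all genes tested 5.43% were called higher, and 11.8% of those above the members' median of 39.5 CPM. Among the genes of DNA and genome maintenance, each above that level, all 3 were called higher. POLE3, a histone-fold subunit of DNA polymerase epsilon and of the CHRAC remodeller, stood at 105 and 115 CPM in shNC and at 146 and 137 CPM in sh812. Its log2 fold change was 0.36 (SE 0.07). RAD23B, which helps XPC recognise DNA damage, had the highest CPM of any member, 313 and 300.3 in shNC against 352 and 347 in sh812. The difference was a log2 fold change of 0.19 (SE 0.06), the smallest among the called members. INIP, a subunit of the SOSS complex that binds single-stranded DNA, rose from 43.8 and 39.8 CPM to 52.9 and 48.1 CPM (log2 fold change 0.27, SE 0.08). In each of the 3 both sh812 libraries lay above both shNC libraries. So they did in 26.2% of all genes tested, and in 2058 of the 5419 above 39.5 CPM.

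Both measured RNA processing genes were called higher. PTBP3, a splicing regulator of the polypyrimidine tract-binding family, had 116 and 103 CPM in shNC and 137 and 132 CPM in sh812 (log2 fold change 0.29, SE 0.07). PRPF4, a protein of the U4/U6 small nuclear ribonucleoprotein, had 85.0 and 87.2 CPM and then 107 and 101 CPM (log2 fold change 0.28, SE 0.07). The groups did not overlap in either gene, with sh812 higher, as in 26.2% of all genes tested. CDC26, a small subunit of the anaphase-promoting complex, which starts within the promoter shown above for PRPF4, had 16.2 and 16.9 CPM in shNC and 21.8 and 21.9 CPM in sh812. Its log2 fold change was 0.40 (SE 0.11), and it became 0.25, no longer called, once each library's trend on transcript length and GC content was removed. CDC26 and PRPF4 share 208 exonic bases on opposite strands. Whether counting used the strand is not given in the sources used here. Reads over these bases could therefore be counted for the other gene, for both or for neither. The CDC26 pseudogene CDC26P1 held 4.04% as many counts as CDC26. The other cell division gene, CDK5RAP2, a centrosomal protein gene, was not called, with 60.2 and 49.9 CPM in shNC and 52.9 and 50.4 CPM in sh812, so that its groups overlapped.

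Of the 7 genes of metabolism and redox, 2 were called higher. TXN, the small protein disulfide reductase thioredoxin, had 217 and 232 CPM in shNC and 308 and 303 CPM in sh812, with no overlap between groups. Its log2 fold change of 0.44 (SE 0.06) became 0.29, still called, with the length and GC trends removed. TXN had the shortest longest transcript among the members (869 bases). HSDL2, a peroxisomal dehydrogenase-like protein gene, rose from 74.5 and 67.9 CPM to 86.0 and 89.95 CPM (log2 fold change 0.30, SE 0.07). Of the genes not called, HDHD3, which encodes a protein of the haloacid dehalogenase family, had a log2 fold change of 0.41 (SE 0.15) and PTGR1, a reductase of prostaglandins and alkenals, one of 0.16 (SE 0.07). UGCG, the ceramide glucosyltransferase, was at -0.14 (SE 0.08), NIPSNAP3A at -0.14 (SE 0.13) and ALAD, the second enzyme of heme synthesis after ALAS1, at -0.02 (SE 0.09). UGCG lay lower in both sh812 libraries, at 38.7 and 39.5 CPM against 44.2 and 41.7 CPM.

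Among genes of membranes and trafficking 2 of 6 were called, both higher. TMEM38B encodes TRIC-B, a cation channel of the endoplasmic reticulum that carries a counter-ion current during calcium release. It had 35.0 and 38.2 CPM in shNC and 46.8 and 45.0 CPM in sh812 (log2 fold change 0.33, SE 0.08). ATP6V1G1, a subunit of the proton pump that acidifies endosomes and lysosomes, had 75.5 and 77.9 CPM and then 91.1 and 89.1 CPM (log2 fold change 0.23, SE 0.07). This gene, with a longest transcript of 1080 bases, lost its call with the length and GC trends removed, at 0.10. The 4 others had values from 0.09 to 0.32: TMEM245 and TMEM268, which encode membrane proteins, SNX30, a sorting nexin gene, and FKBP15, a gene of the FK506-binding family. Of these, TMEM245 had 128.5 CPM in each shNC library and 136 and 138 CPM in sh812, and with the length and GC trends removed it was called (0.18), as was TMEM268 (0.37).

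LPAR1, a G protein-coupled receptor for lysophosphatidic acid, was the called signalling gene. It had 153 and 157 CPM in shNC and 181 and 182 CPM in sh812 (log2 fold change 0.23, SE 0.06), with a gap between groups wider than the spread in either. RGS3, a regulator of G protein signalling, had a value of 0.24 (SE 0.14) and PTPN3, a tyrosine phosphatase gene, 0.05 (SE 0.09), neither called. Among the genes of junctions and the cytoskeleton, EPB41L4B, a FERM domain protein gene, had the highest log2 fold change of any member other than PAPPA, 0.53 (SE 0.08). It stood at 31.2 and 33.5 CPM in shNC and 45.6 and 47.6 CPM in sh812. CTNNAL1, which encodes alpha-catulin, a relative of alpha-catenin, had 180.1 and 179.7 CPM and then 209.98 and 206 CPM (log2 fold change 0.21, SE 0.06). WHRN, a PDZ scaffold gene, was at 0.06 (SE 0.12) and FSD1L at 0.06 (SE 0.17).

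Protein turnover held the member that fell. PSMD5, a chaperone for assembly of the base of the 19S proteasome particle, had 57.4 and 58.4 CPM in shNC and 45.8 and 43.5 CPM in sh812. Its log2 fold change was -0.37 (SE 0.08) and the groups lay apart. FBXW2, a substrate receptor of the SCF ubiquitin ligase, had 76.6 and 77.3 CPM in shNC and 77.5 and 75.8 CPM in sh812, a value of -0.01 (SE 0.07) with overlapping groups. TRIM32, a ubiquitin ligase gene, was at 0.01 (SE 0.10).

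The 5 genes placed under surface and secreted proteins had mean levels between 0.472 and 16.4 CPM. PAPPA, a protease that cleaves insulin-like growth factor binding proteins, had 0 and 8 counts in shNC and 23 and 35 counts in sh812. It was called higher, but its fitted log2 fold change of 2.75 (SE 0.81) was 1.68 without shNC replicate 1, no longer called, and 7.90 without shNC replicate 2, where the remaining control count is 0. SVEP1, a large matrix protein gene, had 2.64 and 3.07 CPM in shNC and 1.71 and 1.87 CPM in sh812, so that its groups lay apart, with a value of -0.67 (SE 0.27) that was not called. MEGF9 was at -0.28 (SE 0.12) and also lower in both sh812 libraries, SUSD1 was at 0.19 (SE 0.16) and ASTN2 at 0.25 (SE 0.17). Of the members with no role assigned here, WDR31 was at 0.06 (SE 0.16) and AKNA at 0.11 (SE 0.15).

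**Figure D2:**
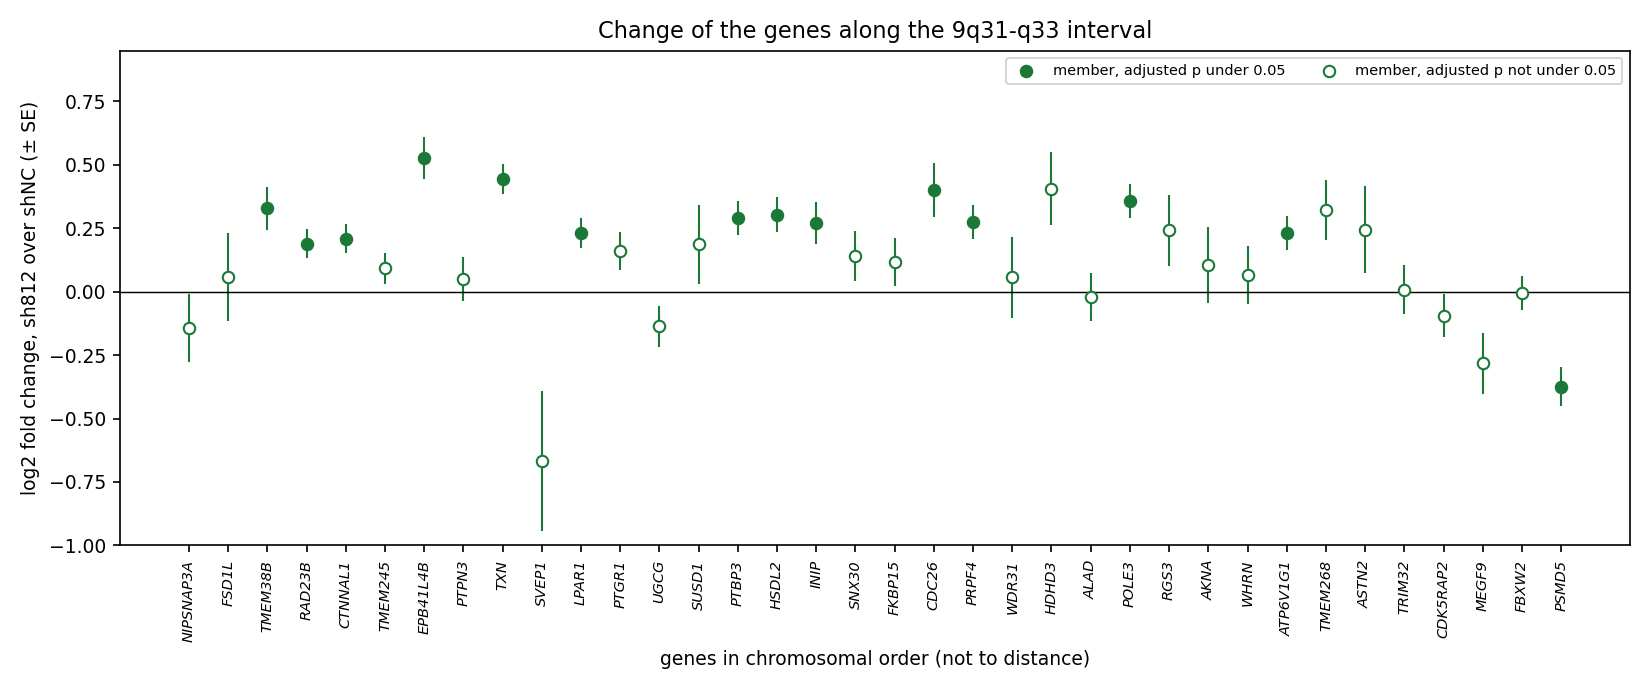
Log2 fold change of sh812 over shNC (y axis, bars are ± 1 SE) for the tested members, in chromosomal order and not to distance (x axis). Filled points have an adjusted p under 0.05 in edgeR; PAPPA (2.75) lies outside the axis and is left out. The filled points are all above 0 except PSMD5, the last gene.

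In chromosomal order, the tested members were divided into 4 groups of 9 or 10 genes. Over all genes tested 5.43% were called higher and 5.42% lower. From NIPSNAP3A to SVEP1 5 of 10 were called higher, with a median log2 fold change of 0.14. From LPAR1 to FKBP15 4 of 9 were called higher (median 0.19), and from CDC26 to WHRN 3 of 9 (median 0.24). From ATP6V1G1 to PSMD5 2 of 9 were called higher, ATP6V1G1 and PAPPA, and 1 lower, with a median of 0.0082. PAPPA passed the filter only through its sh812 counts. The last 4 genes, CDK5RAP2, MEGF9, FBXW2 and PSMD5, all had values below 0. CDK5RAP2 and FBXW2 changed sign in some alternatives.

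At the edges of the interval, the outermost members inside were NIPSNAP3A and FSD1L at one end and FBXW2 and PSMD5 at the other. NIPSNAP3A had 12.3 and 14.4 CPM in shNC and 10.7 and 13.4 CPM in sh812, and FSD1L 5.85 and 5.82 CPM and then 5.41 and 6.73 CPM, so both overlapped between groups. Just outside, SMC2, a condensin subunit gene, had a log2 fold change of -0.02 (SE 0.08), and PHF19, a Polycomb-associated gene, one of 0.12 (SE 0.07). Neither was called.

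The interval held 36 other tested genes, which the rule did not take. Of these 4 were called higher and 2 lower, 16.7% in all. Over all genes tested 10.8% were called, and 6.39% of those at or below 39.5 CPM. The median log2 fold change of the 36 was 0.13. Their median abundance was 2.68 CPM against 39.5 CPM for the members, and their median SE was 0.27 against 0.086. Among the 26 that code for protein, SLC44A1, a choline transporter gene, had a log2 fold change of 0.41 (adjusted p = 0.000603 in edgeR). ECPAS, a proteasome adaptor gene, was at 0.30 (adjusted p = 0.00600 in edgeR) and SLC31A1, the copper importer gene, at 0.21 (adjusted p = 0.0392 in edgeR).

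The 2 that fell were TNC and TLR4. TNC, the matrix glycoprotein tenascin-C, had 374 and 366 CPM in shNC and 286.5 and 290.1 CPM in sh812 (log2 fold change -0.36, adjusted p = 0.000153 in edgeR). TLR4, the lipopolysaccharide receptor, had 132 and 113 counts in shNC and 14 and 2 counts in sh812 (log2 fold change -3.94, adjusted p = 1.88e-06 in edgeR). The other 20 protein-coding genes, none of them called, included NIPSNAP3B, ABCA1, ZNF462, KLF4, ABITRAM, PALM2AKAP2, C9orf152, MUSK, ZNF483, DNAJC25, SHOC1, KIAA1958, SLC31A2, C9orf43, ZNF618, COL27A1, TEX48, TNFSF15 and B3GNT10. Their values ran from -0.65 in COL27A1 to 0.85 in SLC31A2, which had at most 13 counts in a library.

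Over all 73 tested genes of the interval, 24.7% were called higher and 4.11% lower, beside 5.43% and 5.42% of all genes tested. In the stretch of the same size before it, 9 of 81 tested genes were called higher and 3 lower, with a median log2 fold change of 0.036. In the stretch after it the numbers were 13 and 11 of 193, with a median of 0.026. The rest of chromosome 9 had 35 called higher and 25 lower among 570 genes, 10.5% in all. No test of these differences between regions was run, because the interval was chosen with the values known.

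**Figure D3:**
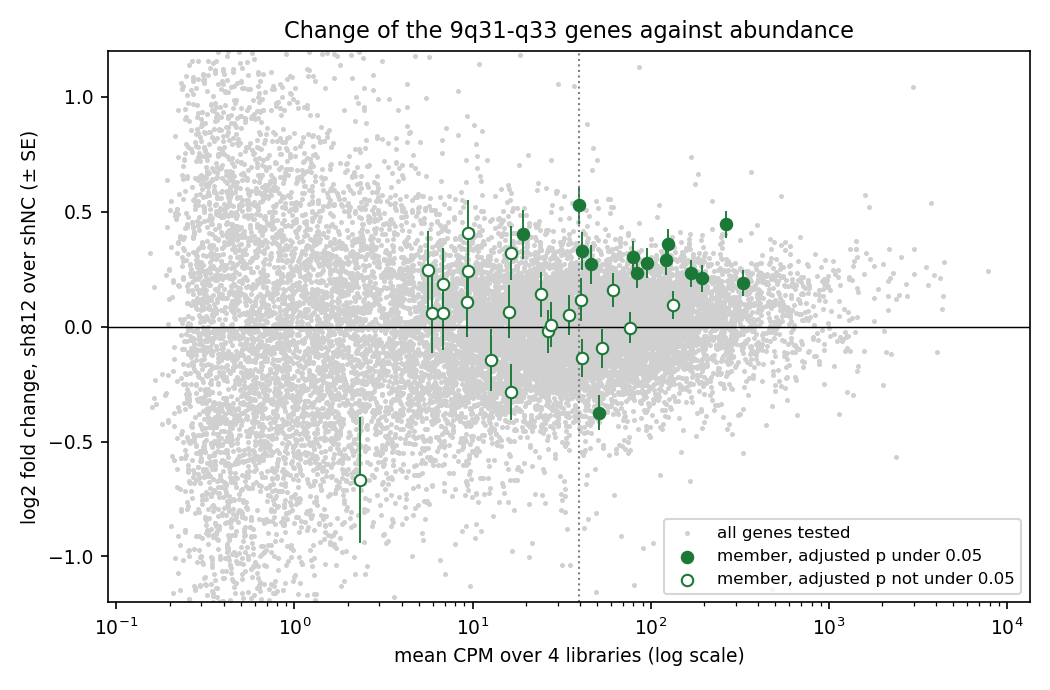
Log2 fold change of sh812 over shNC (y axis, bars are ± 1 SE) against mean CPM over the 4 libraries (x axis, log scale) for the members (green) and all genes tested (grey). The dotted line is the members' median of 39.5 CPM; 12 of the 18 members above it are called and 3 of the 19 at or below it, PAPPA among them, which is left out with the grey points beyond ± 1.2.

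Above the members' median of 39.5 CPM, 11 of 18 were called higher and 1 lower, and at or below it 3 of 19 were called higher, namely EPB41L4B, CDC26 and PAPPA. Over all genes tested, 11.8% of those above that abundance were called higher and 2.38% of those at or below it. The sizes of the changes differed less than the calls. The median log2 fold change was 0.22 above the median abundance and 0.11 at or below it, with a positive value in 14 of 18 and 15 of 19 members. The median SE was 0.067 above and 0.13 at or below, so a change of the same size is called more readily in an abundant member. Across the 36 members other than PAPPA, the Spearman correlation of change with abundance was 0.28, and with PAPPA it was 0.18 over 37 genes. Genes of the same 4 libraries are not independent, and these correlations describe the libraries.

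Per kilobase of the longest transcript, TXN was the most abundant member at 305 CPM per kb, above 98.0% of the genes tested. RAD23B (79.7), ATP6V1G1 (77.2) and CTNNAL1 (76.9) followed close to each other on this scale, then POLE3 (52.5) and LPAR1 (46.3). All 6 were called higher, beside 5.43% of all genes tested and 11.8% of those above 39.5 CPM, a level that each of the 6 exceeded. The members were chosen on this contrast, so this count is a description. The middle of the order was ALAD at 8.15 CPM per kb, and the lowest were SVEP1 (0.188) and PAPPA (0.043). EPB41L4B, with its larger change, ranked only 22nd of the 37 at 6.81 CPM per kb.

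**Figure D4:**
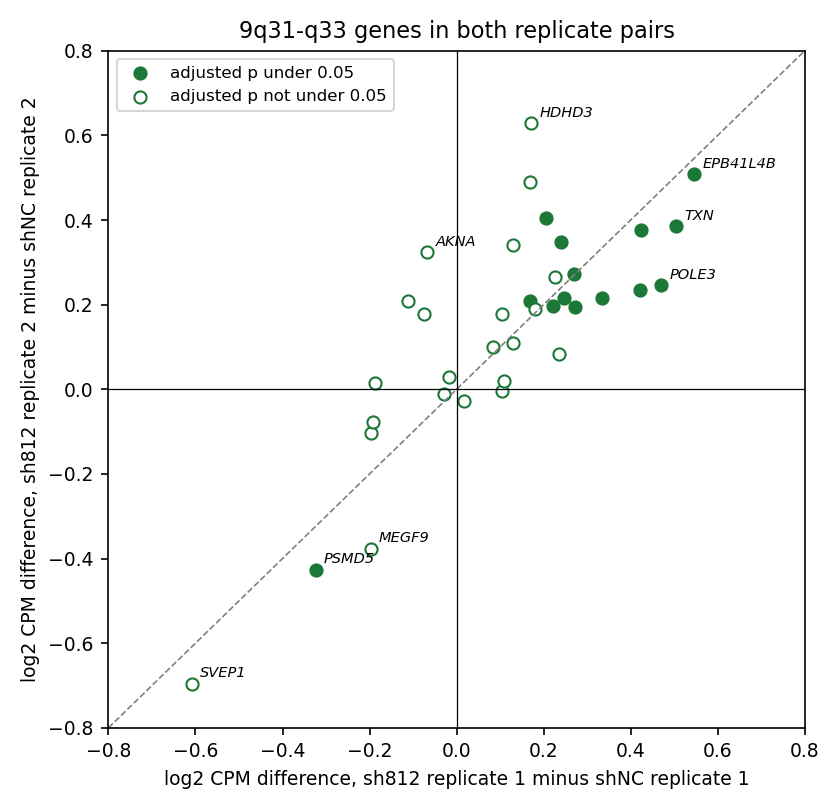
Difference in log2 CPM between sh812 and shNC for replicate 1 (x axis) and replicate 2 (y axis), 1 point per tested member without PAPPA; filled points have an adjusted p under 0.05 in edgeR and the dashed line marks equal change. The filled points lie in the upper right, except PSMD5 at -0.32 and -0.43, and SVEP1 lies lowest at -0.61 and -0.70.

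Both replicate pairs gave similar values. In pair 1 (sh812 replicate 1 against shNC replicate 1) the members' median log2 CPM difference was 0.17 and 26 of 37 were positive. In pair 2 it was 0.20, with 29 positive. The crossed pairings gave 0.21 and 0.15. All 4 pairings were positive in 22 members and negative in 4 (SVEP1, UGCG, MEGF9 and PSMD5), beside 26.2% and 27.3% of all genes tested. The Spearman correlation between the pairs, which share no library, was 0.73 over the 36 members other than PAPPA. Over 12319 tested genes with an average log2 CPM above 1 it was 0.53. The members were chosen on fold changes made of these pairs, so closer agreement among them is no independent support. The pairs gave opposite signs in 7 members, all uncalled. The widest gaps were in PAPPA, at 3.64 and 1.74, HDHD3, at 0.17 and 0.63, and AKNA, at -0.07 and 0.32. In HDHD3 the second pair's larger value goes with the highest sh812 level, 12.0 CPM in replicate 2 against 9.66 CPM in replicate 1. In AKNA shNC replicate 1 stood highest, at 10.3 CPM against 7.62 CPM in replicate 2.

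Within groups the members showed no common direction. Whether the choice of genes used the spread within groups is not stated. The median log2 CPM difference of shNC replicate 2 minus replicate 1 was 0.015, with 20 of 37 positive. For the sh812 libraries it was -0.019, with 18 of 37 positive. The median absolute difference was 0.099 between the shNC libraries and 0.065 between the sh812 libraries, against 0.14 and 0.11 over all genes tested. The members were the more abundant set, with a median of 39.5 CPM against 15.8 CPM, so these values are not a like comparison. Transcript length moved with the changes. Across the 36 members other than PAPPA the Spearman correlation of log2 fold change with longest transcript length was -0.38, and that of the difference between the shNC replicates with length was -0.37. Over 12291 tested genes with an average log2 CPM above 1 and a length these were -0.33 and -0.32. The difference between the sh812 replicates had a correlation with length of -0.08 in the members and 0.04 over those genes. The part of length in the members' changes was not tested beyond the removal of the trend, after which 14 members were called higher, 12 of them among the 14 called without it, and the median was 0.18.

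Within the interval 6 pairs of tested genes started head to head within 1000 bases. CDC26 and PRPF4 had log2 fold changes of 0.40 and 0.28. FKBP15, not called, had 0.12 and SLC31A1 had 0.21. POLE3 had 0.36 and C9orf43, at 90 and 57 counts in shNC and 61 and 57 in sh812, had -0.33 (SE 0.31), not called. POLE3 and C9orf43 share 104 exonic bases on opposite strands. Other pairs were LRRC37A5P with DNAJC25 and C9orf147 with KIAA1958, none of them called. Over 1055 such protein-coding pairs in the whole table the Spearman correlation of the paired log2 fold changes was 0.14.

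Partners of the members that are encoded outside the interval were listed from general knowledge, 77 genes in 14 groups, of which 76 were tested. Of these 6 were called higher and 2 lower, 10.5% in all, and their median log2 fold change was 0.059. Over all genes tested 10.8% were called, and 20.2% of those above 39.5 CPM, a level that many partners exceeded. In the U4/U6 group all 5 genes had positive values, with PRPF31 (0.29, adjusted p = 0.00612 in edgeR) and SNU13 (0.23, adjusted p = 0.0234 in edgeR) called, beside 0.28 for PRPF4. CHRAC1, the histone-fold partner of POLE3 in CHRAC, was at 0.21 (adjusted p = 0.0367 in edgeR), while the 5 other genes of that group were not called and ran from -0.07 in BAZ1A to 0.23 in POLE2. In the SOSS complex NABP2 was at 0.24 (adjusted p = 0.0279 in edgeR), and INTS3 (-0.12) and NABP1 (-0.07) were not called. CETN2, which binds XPC beside RAD23B, was at 0.29 (adjusted p = 0.00241 in edgeR), and XPC itself, not called, at -0.11. In the heme synthesis group all 7 genes had positive values, beside -0.02 for ALAD. ALAS1, the first enzyme, was the 1 called, at 0.19 (adjusted p = 0.0435 in edgeR).

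In the anaphase-promoting complex 0 of 8 partners were called higher and CDC23 was lower, at -0.37 (adjusted p = 0.00211 in edgeR), beside 0.40 for CDC26. In the V1 sector of the proton pump 0 of 7 were called and 1 of 7 was positive, with a median of -0.051 beside 0.23 for ATP6V1G1. In the thioredoxin group 0 of 6 were called, with a median of 0.13. In the group of PSMD5, 0 of 7 were called, and the values ran from -0.05 to 0.08. UGT8, which galactosylates ceramide, was lower at -0.32 (adjusted p = 0.0210 in edgeR). No partner was called in the PTB family, lysophosphatidic acid, endoplasmic reticulum calcium and SCF groups.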

How the data were processed

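Poly(A) RNA from PC3 cells was measured in 4 libraries, 2 labelled shNC and 2 labelled sh812. The authors deposited raw read counts per gene. The submitters' processing notes name fastp, STAR 2.7.1a, featureCounts, DESeq2 and hg38, without a role or order; the annotation release, the strand setting and the counted unit (single reads or read pairs) are not given in the sources used here. From the deposited counts, edgeR 4.0.16 in R 4.3.3 (filterByExpr, TMM, glmQLFit and glmQLFTest, no covariate) tested 16802 genes, with Benjamini-Hochberg adjustment over all of them. The prior count was 0.125 for fitted fold changes and 2 for log2 CPM differences between libraries. CPM uses the TMM-adjusted library size. The SE comes from the quasi-likelihood F statistic. GENCODE 29 (GRCh38) supplied positions, lengths and GC, joined on the Ensembl gene identifiers. This edgeR fit was tested on simulated counts, and the alternative fits named below were not. The members and lists were chosen with earlier results of these data known. All members are named, with values in each library for those called; of other genes, METTL3, protein-coding genes in and next to the interval, and partners are named. Replicates differed by more than sampling noise (chi-square per gene 8.43 in shNC and 4.51 in sh812) and were counted separately. The alternatives were other size factors, other filters, DESeq2 1.42.0, limma-voom (limma 3.58.1), the replicate number as a block, each library left out, and removal of length and GC trends, chosen after results were seen. When a library is left out, the lone library is assumed to vary like the other group. A few genes of the interval that are not members are not reported here.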

Additional observations from a re-analysis of the deposited data

How the results depend on the processing

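The members' median log2 fold change of 0.19 was 0.14 with library size alone, which moved the median of all genes from -0.0056 to -0.050, and 0.16 without a low-count filter, which fitted 39 members. The number of members called higher was 10 with library size alone, where RAD23B, CTNNAL1, INIP and ATP6V1G1 lost their call, and 13 or 14 in the 8 other alternatives that used all 4 libraries. Library size alone gave 561 genes called higher and 1328 lower over all genes (29.7% of calls higher, against 50.1%). TRIM32 was at -0.036 with library size alone and FBXW2 at 0.081 with the length and GC trends removed, both uncalled and of the other sign. The cause of these shifts was not tested.

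Leaving out a library gave from 4 to 15 members called higher and from 0 to 3 called lower, from 587 to 3252 genes called over all tested, a members' median from 0.17 to 0.21 and METTL3 values from -2.52 to -2.33. Without sh812 replicate 1 or 2, 587 and 682 genes were called, and without shNC replicate 2, 3252. The 4 members called higher without an sh812 library were each among the 14. EPB41L4B, TXN and POLE3 were called in all 13 alternatives that gave a new test. Without shNC replicate 2, CDK5RAP2 (-0.22) and MEGF9 (-0.34) were called lower, and without shNC replicate 1, HDHD3 (0.49) and TMEM268 (0.46) were called higher. Of the members not called with all 4 libraries, 10 changed sign when a library was left out, and their values ran from -0.085 to 0.35 in AKNA, -0.036 to 0.0020 in ALAD, -0.22 to 0.050 in CDK5RAP2, -0.020 to 0.0093 in FBXW2, -0.013 to 0.24 in FKBP15, -0.11 to 0.21 in FSD1L, -0.32 to 0.0088 in NIPSNAP3A, -0.079 to 0.090 in TRIM32, -0.061 to 0.17 in WDR31 and -0.015 to 0.15 in WHRN.

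The replicate numbers are shared by both groups, without a statement that they mark a day or batch. Same-numbered libraries had a correlation of deviations of 0.037 across genes, too low to treat them as pairs. A fit that takes the replicate number as a block called 2001 genes, with the same 14 members higher and 1 lower, their median at 0.19 and METTL3 at -2.42. Counts of 10 or fewer limit ZFP37, RNF183 and PAPPA in shNC, for which no reliable fold can be given.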

Other observations

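The letters GGACT, the core of the commonest m6A motif in messenger RNA, were counted in the longest GENCODE transcript of each gene. The 37 tested members had a median of 0.841 GGACT per kilobase, against 0.909 over 16627 genes tested. LPAR1 had the highest density, 2.47 per kilobase with 9 occurrences, followed by PRPF4 (1.56 with 5 occurrences) and RGS3 (1.52 with 7 occurrences). TXN, CDC26, ATP6V1G1 and NIPSNAP3A had 0 occurrences, and they include the 3 shortest longest transcripts among the members (869, 872 and 1080 bases in TXN, CDC26 and ATP6V1G1). EPB41L4B had 1 occurrence in 5800 bases. Across the members the Spearman correlation of density with log2 fold change was -0.16 over 37 genes, and over all genes tested it was 0.018. These counts are of letters in annotated transcripts, and methylation was not measured here.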
